A study of Homo sapiens with 27 samples.

Results

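The cytosolic ribosome is built from rRNA and a fixed set of proteins, and the genes for those proteins were followed here at the level of mRNA and of ribosome footprints. Members were the protein-coding genes whose symbol is RPL or RPS followed by a number and at most one A or X, together with RPLP0, RPLP1, RPLP2 and RPSA. The rule found 77 genes, 46 of the large (60S) subunit and 31 of the small (40S) subunit, among 19148 protein-coding genes and 60534 gene identifiers present in all the tables. The rule used names and no measured value.

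All cells were wild-type IMR90, untransformed fibroblasts grown from a human fetal lung, so every group is a model in 1 line. RNA-seq measured mRNA in 13 libraries, and Ribo-seq, which sequences the stretches of mRNA that ribosomes shield from RNase, measured footprints in 14 libraries made from lysates collected in parallel. The 5 states were cycling cells below confluence (2 RNA-seq and 3 Ribo-seq libraries), cells made quiescent by contact inhibition (3 and 3), cells senescent 10 days after 15 Gy of ionizing radiation (3 and 3), cells senescent after 3 doses of 50 µM etoposide over 10 days (3 and 3), and cycling cells given 25 nM thapsigargin for 3 h (2 and 2). Etoposide traps topoisomerase II on broken DNA, and thapsigargin blocks the pump that loads calcium into the endoplasmic reticulum and is used to trigger the integrated stress response. The lysis buffer of all groups held cycloheximide, which holds ribosomes in place, and the medium of the thapsigargin groups was described without the antibiotic named for the others.

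Ribosomal protein mRNAs are among the most abundant mRNAs of a growing cell, and the proteins are made in matched amounts because a subunit takes up most of them in equal numbers. Most of these mRNAs begin with a cytosine followed by an unbroken run of pyrimidines, the 5′ terminal oligopyrimidine (TOP) tract. Through that tract the kinase mTOR, acting on LARP1 and the 4E-BPs, sets how many ribosomes such mRNAs carry. In fibroblasts, growth arrest and mTOR inhibition are known to move TOP mRNAs out of polysomes with less change in their amount.

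The first bases of the mRNA are therefore shown for the genes on which the results below turn. Each line gives 10 bases before and 20 bases from a start annotated by RefSeq on GRCh38.p14, read 5′ to 3′ on the gene's own strand. Capitals mark the unbroken run of C and T that begins with a C at the annotated first base. The first group holds the stalk proteins, the next RPS6, RPS3, RPSA and RPS14 of the small subunit. The last holds large-subunit genes and, at its end, RPS28 of the small subunit.

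RPLP0, chr12:120201092-120201121 (minus strand): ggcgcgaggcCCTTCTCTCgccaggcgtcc

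RPLP1, chr15:69452808-69452837 (plus strand): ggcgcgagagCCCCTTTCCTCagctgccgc

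RPLP2, chr11:809957-809986 (plus strand): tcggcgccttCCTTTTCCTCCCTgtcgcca

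RPS6, chr9:19380217-19380246 (minus strand): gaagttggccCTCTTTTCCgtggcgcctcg

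RPS3, chr11:75399508-75399537 (plus strand): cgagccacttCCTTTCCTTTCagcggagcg

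RPSA, chr3:39406710-39406739 (plus strand): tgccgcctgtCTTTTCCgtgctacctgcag

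RPS14, chr5:150449720-150449749 (minus strand): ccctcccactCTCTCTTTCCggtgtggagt

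RPL11, chr1:23691796-23691825 (plus strand): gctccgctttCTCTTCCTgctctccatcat

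RPL22, chr1:6199576-6199605 (minus strand): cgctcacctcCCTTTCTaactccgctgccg

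RPL38, chr17:74203668-74203697 (plus strand): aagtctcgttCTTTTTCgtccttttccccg

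RPL7A, chr9:133348208-133348237 (plus strand): attccctttcCTTTCTCTCTCCTCCCgccg

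RPL10, chrX:154398367-154398396 (plus strand): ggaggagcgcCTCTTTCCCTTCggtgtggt

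RPL26, chr17:8383174-8383203 (minus strand): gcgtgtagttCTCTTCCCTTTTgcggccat

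RPL4, chr15:66504836-66504865 (minus strand): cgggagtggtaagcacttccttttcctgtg

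RPS28, chr19:8321486-8321515 (plus strand): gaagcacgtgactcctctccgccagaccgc

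The windows of RPL4 and RPS28 hold no capitals because their annotated first base is an A. RPL10 and RPL11 have further annotated starts without the run, and the start with it is shown. Of the 62 members with an entry among the RefSeq promoters, 46 (74.2%) had a start of C followed by at least 4 more C or T, searched on the gene's strand only. The share was 73.7% (28 of 38) for large-subunit genes and 75% (18 of 24) for small-subunit genes. Among the other protein-coding genes 923 of 15245 (6.05%) had such a start, and among the genes of the mitochondrial ribosome 6 of 69 (8.70%). The match describes annotated starts only, since the start used in these cells was not measured.

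RNA-seq libraries held 20635503 to 57119841 gene counts and Ribo-seq libraries 1936976 to 19996104. The thapsigargin libraries stood apart from all others: 1.35% and 1.40% of their RNA-seq reads were unmapped against 27.8% to 40.6% elsewhere, and 65.2% and 66.9% of their Ribo-seq reads mapped to several places against 19.8% to 31.9%. Of their uniquely mapped Ribo-seq reads 12.6% and 11.3% overlapped no gene, against 1.35% to 2.77% elsewhere. Uniquely mapped RNA-seq reads that overlap several genes were 7.11% and 6.65% with thapsigargin and 11.4% and 10.7% in cycling libraries. The thapsigargin Ribo-seq tables also used the longer of 2 gene lists (62703 identifiers, as did all RNA-seq tables) while the other Ribo-seq tables listed 60664, so only the 60534 shared identifiers were used. All 10 fibroblast markers, COL1A1 and VIM among them, were above 1 CPM (a level in counts-per-million) in every RNA-seq library. The summed level of 5 immune markers was at most 1.29 CPM. The summed level of 5 endothelial markers was 57.0 to 90.1 CPM in the etoposide libraries and 5.20 to 36.5 CPM elsewhere, and that of 5 epithelial markers was 15.5 and 19.1 CPM with thapsigargin and at most 3.18 CPM elsewhere; the part of these cells or transcripts in the results was not tested. The labels do not say whether libraries of a state came from separate cultures, so p-values measure only the spread between these libraries. In bulk cultures like these, fewer cells that make an mRNA and less of it per cell cannot be told apart.

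The members had few footprint counts for their mRNA counts. The deposited counts hold only reads that map to 1 place and to 1 gene, while the genome carries many near-copies of ribosomal protein mRNAs: 1587 annotated pseudogenes were named after a member, at least 1 for each of the 77, with a median of 14 and up to 133 for RPL21. In cycling cells the log2 ratio of footprint CPM to mRNA CPM had a median of -1.93 over the 77 members, against -0.11 over the 11639 genes tested in both assays. Of the members, 55 lay below the lower quartile of all genes (-0.81) and 10 above their median. The median ratio was lower for members with more pseudogenes. It was -1.01 for the 23 members with 1 to 5 pseudogenes, -1.62 for 17 members with 6 to 14, -3.42 for 19 members with 15 to 27 and -4.67 for 18 members with 30 to 133. Across the 77 members, which share libraries and the same mRNA depth, Spearman's rho between the 2 was -0.44 and Pearson's r with the log2 number of pseudogenes was -0.42. Adding the counts given to the pseudogenes back to their parents left the median at -1.93. Reads that map to several places are not counted per gene here, so fewer ribosomes on these mRNAs and uncounted footprint reads cannot be told apart.

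**Figure D1:**
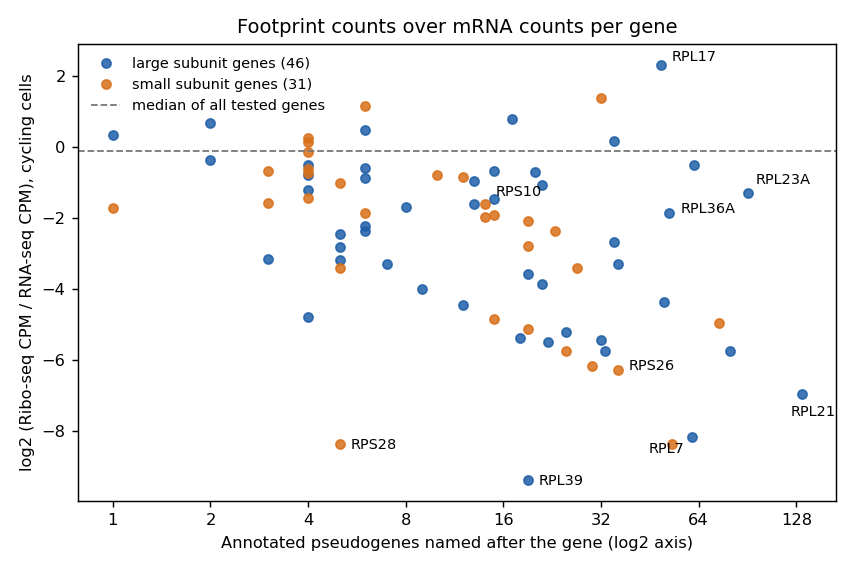
Each point is 1 of 77 members in cycling cells, with its number of annotated pseudogenes on a log x axis and the log2 ratio of footprint CPM to mRNA CPM, with 0.5 added to each, on the y axis. The median falls from -1.01 for members with 1 to 5 pseudogenes to -4.67 for those with 30 to 133, but single members depart from this order: RPL17, with 49, is highest (2.31), and RPS28, with 5, is at -8.37. RPS28 has 9 footprint counts over the cycling libraries, so its value depends on the 0.5 added, as do those of other members with few counts.

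At the far end RPL39, a very short protein at the peptide exit tunnel, had 13037 and 8178 mRNA counts but 1, 2 and 3 footprint counts in the cycling libraries. RPS28, which lies beside the path of the mRNA leaving the 40S subunit, had 7135 and 4548 mRNA counts but 1, 2 and 6 footprint counts, with only 5 named pseudogenes. Large-subunit members had a median ratio of -2.30 and small-subunit members of -1.88, with a median of 15 and 12 pseudogenes. Levels of footprints per mRNA are therefore not compared between members, and only the same gene is compared across states. A footprint change of a member with many pseudogenes rests on reads from positions where it differs from its copies.

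Some members were nearly absent from the mRNA counts as well. RPL36A had 2.78 and 3.17 CPM, RPS10 1.54 and 1.40 CPM and RPL17 6.44 and 4.73 CPM in cycling cells, whereas RPLP0 had 3140.0 and 3059.5 CPM. For RPL36A, RPS10 and RPL17 the gene list also holds a readthrough gene that spans the member and its neighbour (RPL36A-HNRNPH2, RPS10-NUDT3 and RPL17-C18orf32), and these were listed at 0 counts in all libraries; a read over both is counted for neither. Changes of these genes rest on few counts. RPL36A, RPL39 and RPS10 had too few footprint counts to be tested, which left 77 members tested in RNA-seq and 74 in Ribo-seq.

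Etoposide-senescent cells gave the smallest share of their mRNA to ribosomal proteins among the states other than thapsigargin. The 77 members took 7.83% and 7.52% of protein-coding RNA-seq counts when cells cycled, 9.43%, 7.21% and 7.64% in quiescent cells, and 7.35%, 8.20% and 7.40% in irradiated cells. The share was 6.38%, 6.32% and 6.45% after etoposide and 5.48% and 4.97% with thapsigargin. The etoposide libraries lie below every cycling, quiescent and irradiated library, and the thapsigargin libraries lie below all others. Among footprints the members took 2.28%, 2.01% and 2.34% in cycling libraries, 2.15%, 2.04% and 2.15% in those of quiescence, 2.10%, 2.10% and 2.28% after irradiation, 1.85%, 1.84% and 1.80% after etoposide and 1.99% and 2.00% with thapsigargin. The etoposide libraries were again the lowest, with a narrower gap. The lower share among footprints than among mRNA holds in every state.

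**Figure D2:**
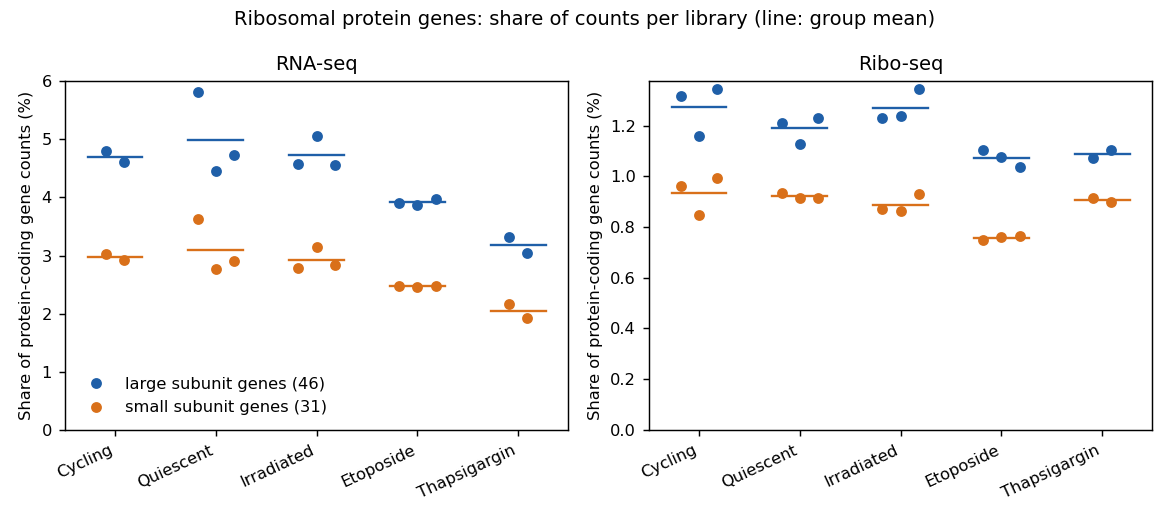
Share of protein-coding counts (percent, y axis from 0) taken by the 46 large-subunit and the 31 small-subunit genes in each RNA-seq and Ribo-seq library, 1 point per library and subunit, with lines at the means of each state. For either subunit the etoposide points, which sum to 6.32% to 6.45% of mRNA and 1.80% to 1.85% of footprints, lie below the cycling, quiescent and irradiated points in both assays.

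In quiescent and irradiated cells most ribosomal protein mRNAs were measured near the cycling level. Against cycling cells, edgeR's quasi-likelihood test with Benjamini-Hochberg adjustment over 13201 genes called 1 of 77 members in quiescent cells, where 15.6% of all genes passed (5.2% higher and 10.4% lower), and 5 of 77 in irradiated cells, where 35% were called (16.2% and 18.8%). The members' median log2 difference was 0.09 in quiescent and 0.06 in irradiated cells, against 0.02 and 0.03 over all genes. Their spread was also narrow, with an interquartile range of 0.18 and 0.25 against 0.54 and 0.80 over all genes. The quiescent call, RPL36A at -1.07 ± 0.31 (SE, edgeR adjusted p = 0.033), was lost without cycling library 1 (adjusted p = 0.14), cycling library 2 (0.19) or quiescent library 3 (0.053). It turned to 0.16 when pseudogene counts were added. In irradiated cells the calls of RPL36A (-2.66 ± 0.34 (SE)) and RPS10 (-2.56 ± 0.46 (SE)) held under every alternative, and both concern the low-count genes above. The quiescent count was 6 without quiescent library 2, and the irradiated count was 2 or 3 without cycling library 1 or 2, 3 without irradiated library 3 and 15, with 11 higher, in a fit on those groups alone.

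RPL22, an RNA-binding large-subunit protein that cells can do without, rose after irradiation. Its mRNA was 157 and 156 CPM in cycling, 213, 218 and 223 CPM in the irradiated, 162, 163 and 166 CPM in etoposide and 228, 155 and 209 CPM in quiescent libraries. The irradiated libraries lay above all cycling and etoposide libraries, and the quiescent ones spanned the range. The log2 difference from cycling cells was 0.48 ± 0.14 (SE, edgeR adjusted p = 0.014), with adjusted p = 0.089 without cycling library 1 and 0.083 without library 2. RPL39 rose by 0.48 ± 0.17 (SE, edgeR adjusted p = 0.042) and lost its call without either cycling library (adjusted p = 0.10 and 0.23) and without irradiated library 2 (0.12) or 3 (0.11).

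After etoposide 11 of 77 members passed the test in mRNA, all of them lower, where 34.6% of all genes were called (16.8% higher and 17.8% lower). Called or not, 62 of 77 differences were below 0. The members' median log2 difference was -0.25 (-0.25 in both subunits) against 0.00 over all genes. RPSA, which the small subunit needs to mature, fell most among the well-counted members. Its mRNA was 1878 and 1848 CPM in cycling libraries, 1768, 1615 and 1343 CPM in the quiescent, 1331, 1685 and 1419.9 CPM in the irradiated and 1137, 1168 and 1123 CPM in etoposide libraries. No etoposide library reached the lowest library of the other 3 states. The log2 difference from cycling cells was -0.71 ± 0.13 (SE, edgeR adjusted p = 0.0011), and the call held under every alternative. RPS10 (-2.72 ± 0.45 (SE)) and RPL36A (-2.40 ± 0.33 (SE)) also held throughout.

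Other calls after etoposide were smaller. RPL5, which with RPL11 and 5S rRNA forms the particle that can bind and block MDM2, had 1353 and 1329.6 CPM in cycling and 968, 917 and 947 CPM in etoposide libraries and fell by 0.51 ± 0.15 (SE, edgeR adjusted p = 0.016) on the log2 scale. Its partner RPL11 stood at -0.34 and was not called. RPS15A (-0.61), RPS7 (-0.51), RPS3A (-0.46), RPL14 (-0.45) and RPL4 (-0.38) were also lower. None of these kept its call when each library was left out in turn. The count over all members was 3 without cycling library 1, 4 without cycling library 2 or etoposide library 2, 6 without etoposide library 3 and 8 without etoposide library 1. A fit on the cycling and etoposide libraries alone called 35 members, 34 of them lower, and scaling by library size alone called 17, all lower.

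In irradiated against etoposide-treated cells 7 of 77 members passed the test in mRNA, all of them higher, where 22.6% of all genes were called (9.69% higher and 12.9% lower), so the members' count is near the share of all genes called higher. Called or not, 75 of 77 differences were above 0, with a median of 0.30 on the log2 scale and an interquartile range of 0.13, against 0.06 and 0.52 over all genes. RPL10, which joins the 60S subunit late in its maturation, was highest in this comparison, with 1227, 1517 and 1360.4 CPM in the irradiated and 952, 943 and 952 CPM in etoposide libraries (0.53 ± 0.15 (SE, edgeR adjusted p = 0.021)). RPL5 (0.50 ± 0.13 (SE)) and RPL22 (0.41 ± 0.12 (SE)) followed, and RPL9, RPL13, RPSA and RPL23A lay between 0.32 and 0.40. Leaving out any 1 of the 6 libraries left 0 to 2 calls, with 0 without etoposide library 2 or irradiated library 2. A fit on these 6 libraries alone called 32 members, all higher.

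When the 2 senescent states were averaged and set against quiescence, the test called 17 members lower and 3 higher in mRNA, where 34.3% of all genes were called (16.6% higher and 17.7% lower). Called or not, 58 of 77 differences were below 0, with a median log2 difference of -0.20 against 0.00 over all genes. RPS15A (-0.60 ± 0.15 (SE, edgeR adjusted p = 0.0069)), RPS4X (-0.40 ± 0.09 (SE, edgeR adjusted p = 0.0054)) and RPL36A (-1.46 ± 0.26 (SE, edgeR adjusted p = 0.00094)) held under every alternative. RPS4X, the X-linked form of S4, had 2506, 1900.5 and 2244 CPM in quiescent and 1545 to 1934 CPM in the 6 senescent libraries, and the groups overlapped at quiescent library 2. RPL17 (0.69 ± 0.22 (SE)), RPS29 (0.46) and RPS12 (0.36) were the 3 called higher. RPL17, one of the low-count genes, stood at -0.14 once pseudogene counts were added. Quiescent library 1 had the largest share of member counts, and without it the median was -0.04 and 11 members were called. Without etoposide library 2 the count was 8, without etoposide library 3 it was 11, and without irradiated library 1 or 3 it was 11 or 9.

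**Figure D3:**
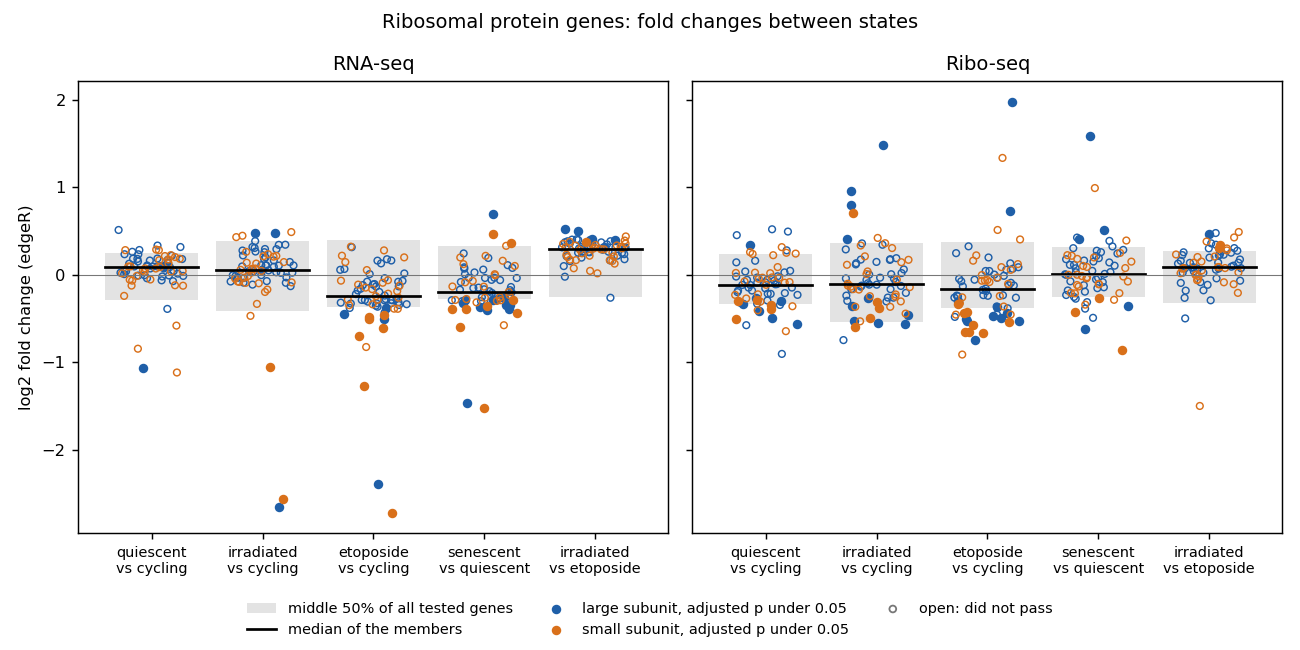
Log2 differences of the members in the 5 comparisons without thapsigargin, by assay, with 1 point per member, filled where the edgeR test passed, a black line at the members' median and a grey box over the middle 50% of all genes tested. In RNA-seq most points crowd around their median (0.09 in quiescent and -0.25 in etoposide-treated against cycling cells, 0.30 in irradiated against etoposide-treated cells), with RPL36A and RPS10 far below it after irradiation and etoposide.

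Among footprints more members were called lower than higher in each of these 3 states, and so were more of all genes. Against cycling cells the members' median log2 footprint difference was -0.11 for quiescent, -0.11 for irradiated and -0.17 for etoposide-treated cells, against 0.02, -0.01 and -0.01 over the 11689 genes tested. In quiescent cells 11 members were lower and 1 higher, where 21.7% of all genes were called (7.12% higher and 14.6% lower). In irradiated cells 10 were lower and 5 higher, where 39.8% were called (17.3% and 22.5%), and after etoposide 17 were lower and 2 higher, where 34.2% were called (16.5% and 17.6%). The share of members called lower was near that of all genes in quiescent cells (14.9%) and below it in irradiated cells (13.5%). After etoposide the members' share was above it (23%). Without cycling library 3 the irradiated median turned to 0.06, the etoposide median was -0.06 and the etoposide count was 12; without quiescent library 3 the quiescent median was -0.20. These 3 comparisons share their cycling libraries.

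RPS6 was the member with the most calls among footprints. It is the 40S protein that S6 kinases phosphorylate downstream of mTOR. Its footprint level was 564, 523 and 519.7 CPM in cycling, 389.6, 477 and 435 CPM in the quiescent, 337, 368 and 357 CPM in the irradiated, 375, 379 and 356 CPM in etoposide and 379.6 and 435 CPM in thapsigargin libraries. Every library of the other 4 states lay below every cycling library, and the 6 senescent libraries lay below the quiescent ones. The log2 difference was -0.60 ± 0.09 (SE, edgeR adjusted p = 0.00017) in irradiated and -0.54 ± 0.09 (SE, edgeR adjusted p = 0.00042) in etoposide-treated cells, and both calls held under every alternative. In quiescent cells it was -0.30 ± 0.09 (SE, edgeR adjusted p = 0.027), and that call was lost without any 1 of the 3 cycling libraries (adjusted p = 0.099, 0.056 and 0.065) or quiescent library 1 (0.15), and in the fit on those groups alone (0.085). Its mRNA was 2046 and 1929 CPM in cycling, 2632, 1791 and 2539 CPM in the quiescent, 1876, 2090.2 and 1855 CPM in the irradiated and 1657, 1458 and 1442 CPM in etoposide libraries. No mRNA difference of RPS6 from cycling cells was called (0.22, -0.03 and -0.39), and neither was any difference in footprints per mRNA.

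RPL38, RPS3 and RPS23 were the other members called lower among footprints in each of these 3 states. RPL38, a small protein on the surface of the 60S subunit known for its part in the translation of Hox mRNAs in mice, had 648, 721 and 691 CPM in cycling and 438 to 536 CPM in the 9 libraries of these states. All 9 lay below the cycling libraries, and the calls (-0.49, -0.55 and -0.37) held under every alternative. RPS3, which lines the mRNA entry of the 40S subunit, had 623, 633 and 730.1 CPM in cycling and 479 to 588 CPM in the 9 others. Its differences were -0.29, -0.38 and -0.43. The quiescent one lost its call without cycling library 3 (edgeR adjusted p = 0.18) and in the fit on those groups alone (0.11). That call was also lost with scaling by library size alone (0.095) and without the filter on low counts (0.072). RPS23, at the decoding centre, stood at -0.34, -0.31 and -0.65, of which the etoposide difference held throughout. RPL38, RPS3 and RPS23 have 6, 5 and 10 named pseudogenes.

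RPL4, a large-subunit protein with a long arm along the exit tunnel, fell in both assays in etoposide-senescent cells. Its footprints were 273, 238 and 313 CPM in cycling, 253, 268 and 294 CPM in the quiescent, 171, 176 and 225 CPM in the irradiated and 149, 170.5 and 172 CPM in etoposide libraries. The 6 senescent libraries lay below all cycling and quiescent libraries. The log2 footprint difference was -0.53 ± 0.13 (SE, edgeR adjusted p = 0.0061) in irradiated and -0.75 ± 0.13 (SE, edgeR adjusted p = 0.00065) in etoposide-treated cells, and both held under every alternative. Its mRNA was 2707 and 2567 CPM in cycling and 2069, 2059.5 and 1965 CPM in etoposide libraries, a difference of -0.38 ± 0.12 (SE, edgeR adjusted p = 0.028) that lost its call without any 1 of the 5 libraries (adjusted p = 0.075 to 0.16). RPL4 was the only member called in both assays and the same direction after etoposide. In quiescent and irradiated cells no member was called in both. Of the 74 members tested in both assays, only 0, 2 and 9 had mRNA calls in quiescent, irradiated and etoposide-treated cells. No overlap was therefore possible in quiescent cells, and at most 2 members could overlap in irradiated and 9 in etoposide-treated cells. The overlap over all genes was not counted. RPL4 has 7 named pseudogenes.

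Other footprint falls that held under every alternative were those of RPS20 in irradiated (-0.50) and etoposide-treated cells (-0.58), and of RPS29 (-0.67), RPL3 (-0.52) and RPS14 (-0.44) after etoposide. RPS20 sits in the head of the small subunit, RPL3 next to the peptidyl transferase centre, and loss of an RPS14 copy is known for causing the anaemia of a chromosomal deletion syndrome. RPS14 had 735, 625 and 677 CPM in cycling, 628, 656 and 570.3 CPM in the irradiated and 499, 493 and 506 CPM in etoposide libraries. The etoposide libraries lay below all cycling and irradiated ones. In quiescent cells RPL32 (-0.57) and RPS13 (-0.51) had the lowest values; of the 12 quiescent calls only that of RPL38 held throughout, and the count was 4 without quiescent library 1 or 2, 5 without cycling library 3, 6 without cycling library 1 or 2, and 3 in the fit on those groups alone.

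The members that rose among footprints were led by genes with many copies. RPL7, with 61 named pseudogenes, had 4.67, 5.2 and 5.67 CPM in cycling, 4.41, 5.15 and 7.59 CPM in the quiescent, 15.8, 13.6 and 13.7 CPM in the irradiated and 21.9, 19.2 and 20.3 CPM in etoposide libraries. The senescent libraries lay above all others, while its mRNA in them was 1278 to 1782 CPM. The log2 difference was 1.48 ± 0.22 (SE, edgeR adjusted p = 0.00018) and 1.98 ± 0.22 (SE, edgeR adjusted p = 1.0e-05). With the counts of its pseudogenes added, the footprint difference was 0.08 in irradiated cells and no longer called, and 0.52 after etoposide. RPL7A, with 80 pseudogenes, had 38.2, 33.4 and 53.6 CPM in cycling, 85.5, 79.9 and 76.7 CPM in the irradiated and 77.6, 71 and 57.9 CPM in etoposide libraries (0.96 and 0.72, both held under every alternative). In irradiated cells RPL41 (0.80 ± 0.18 (SE)) and RPL24 (0.40 ± 0.11 (SE)) also rose throughout, and RPS27 (0.71 ± 0.18 (SE)) lost its call without irradiated library 1 (adjusted p = 0.052).

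**Figure D4:**
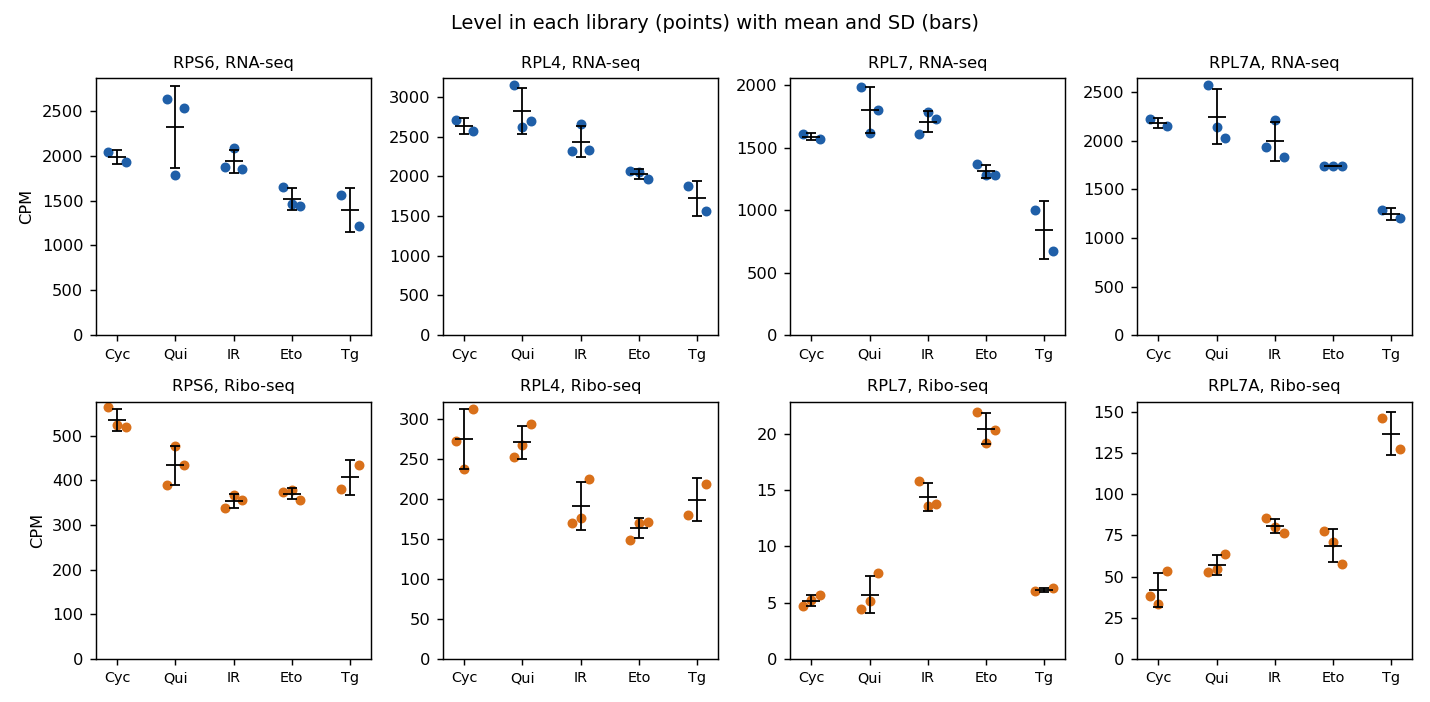
CPM of RPS6, RPL4, RPL7 and RPL7A (y axis from 0) in each RNA-seq and Ribo-seq library, 1 point per library, with bars at the mean and SD of each state (Cyc, cycling; Qui, quiescent; IR, irradiated; Eto, etoposide; Tg, thapsigargin). RPS6 footprints are 337 to 379 CPM in senescent against 519.7 to 564 CPM in cycling libraries, and RPL7 footprints are 4.67 to 5.67 CPM in cycling and 13.6 to 21.9 CPM in senescent libraries.

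Translational efficiency, the footprint change beyond the mRNA change, was tested as the interaction of assay and state over all 27 libraries. In quiescent against cycling cells 0 of 11639 genes (0%) passed the edgeR test, and DESeq2 called 0 members; 11 of 74 members and 369 of all genes had an unadjusted p under 0.05. In irradiated cells 1 member passed where 0.0172% of all genes did (all higher), and after etoposide 1 member where 0.043% did (0.0258% higher and 0.0172% lower). Both calls were RPL7, at 1.43 ± 0.24 (SE, edgeR adjusted p = 0.026) and 2.25 ± 0.23 (SE, edgeR adjusted p = 1.1e-05), and with pseudogene counts added they stood at 0.02 and 0.79 and were not called. The irradiated call was lost without cycling RNA-seq library 1, cycling Ribo-seq library 1, irradiated RNA-seq library 1 or 3 or any irradiated Ribo-seq library (adjusted p = 0.056 to 0.11). Among senescent against quiescent cells RPL7 was again the 1 call (1.83 ± 0.19 (SE, edgeR adjusted p = 1.2e-05), 0.043% of all genes called, 0.0172% higher and 0.0258% lower) and held under every alternative. In irradiated against etoposide-treated cells 0 genes (0%) were called by edgeR, and DESeq2 called 0 members; 4 members and 615 genes had an unadjusted p under 0.05.

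The members' median difference in efficiency was -0.14 for quiescent, -0.08 for irradiated and 0.03 for etoposide-treated cells, against 0.02, -0.01 and 0.01 over all genes. In counts simulated for irradiated against cycling cells at these depths, the test found 41% of genes with a log2 change of 1 in efficiency. It found 95% of those with a change of 2, so smaller changes could be missed there. The simulation gave all genes the same spread and did not cover the other comparisons or the members apart. What was detectable for them is not known. The efficiency tests also cross the 2 gene lists. Across the 74 members, Pearson's r between RNA and footprint differences ran from -0.13 to 0.11 in the 6 comparisons, over genes that share libraries.

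Between the 2 kinds of senescent cells, footprints of 3 members were higher after irradiation and none lower, where 21.7% of all genes were called (7.78% higher and 13.9% lower). They were RPL10 (0.47 ± 0.15 (SE)), RPS23 (0.35 ± 0.10 (SE)) and RPS14 (0.31 ± 0.09 (SE)), and none held when each library was left out. The count was 0 without etoposide library 2 or irradiated library 1 or 2, 1 without etoposide library 1, 11 in the fit on these libraries alone and 12 with scaling by library size alone. The members' median was 0.09 against 0.04 over all genes. Against quiescent cells the senescent median was 0.00, with 5 members lower and 3 higher where 26.1% of all genes were called (12.4% higher and 13.7% lower). RPS18 (-0.86 ± 0.20 (SE)), RPL4 (-0.62 ± 0.11 (SE)) and RPS20 (-0.42 ± 0.10 (SE)) were lower and RPL7 (1.59 ± 0.19 (SE)) higher under every alternative. Without quiescent library 3 the count was 13. RPS18 had 565, 696 and 741 CPM in quiescent and 276 to 584 CPM in senescent libraries, which overlap at irradiated library 3. RPS6 and RPL4 were the 2 members called lower in both assays in this comparison, and the overlap over all genes was not counted.

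Thapsigargin-treated cells had the lowest levels of these mRNAs. Of 77 members 74 were below cycling cells, with a median log2 difference of -0.55 in both subunits (-0.55 and -0.54), against -0.03 over all genes. The test called 42 lower and 1 higher, where 24.6% of all genes passed (11.8% higher and 12.8% lower), and 24 of these 43 calls held under every alternative. The count was 28 without cycling RNA-seq library 1 and 26 in the fit on those groups alone. The thapsigargin libraries differ from all others also in unmapped and multimapping reads, reads outside genes, gene list and medium. Treatment and library therefore cannot be told apart. Counts given to pseudogenes were 2.72 and 2.78 per 100 member counts in the thapsigargin libraries, against 0.654 to 0.901 in the other RNA-seq libraries. With these counts added to their parents, the members' median moved by less than the spread between libraries of a state (pooled SD 0.15). The calls of RPS20, RPL13 and RPL22 were then lost, and RPL36A turned to 2.96. The part of reads that map to several places was not tested.

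RPL39 fell most, from 477 and 425 CPM in cycling to 108 and 71.4 CPM (-2.33 ± 0.19 (SE, edgeR adjusted p = 3.6e-06)). RPL41, the shortest ribosomal protein, had 528 and 510.3 and then 191 and 141 CPM (-1.64 ± 0.17 (SE)), and RPL36A stood at -2.14 ± 0.36 (SE), which turned to 2.96 once pseudogene counts were added. RPSA (-1.03), RPL11 (-0.80), RPL13A (-0.74), RPLP0 (-0.73) and RPS27 (-0.72) fell and held throughout. RPL5, RPL22, RPS3, RPS14, RPS27A and RPS4X were also called lower, between -0.47 and -0.69, but none of these calls held throughout. In the fit on those groups alone the adjusted p was 0.076 for RPL5, 0.073 for RPS3, 0.12 for RPS14, 0.11 for RPS27A and 0.087 for RPS4X, and these 5 calls were also lost without cycling library 1 or 2. RPL22 had 0.068 once pseudogene counts were added. The values of RPS6 (-0.51), RPL3 (-0.55), RPLP1 (0.05) and RPLP2 (-0.09) were not called.

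RPL26, which is known to bind p53 mRNA after DNA damage, went the other way. Its mRNA was 98.6 and 86.5 CPM in cycling, 69.7 to 119.9 CPM in quiescent and senescent and 223 and 184 CPM in thapsigargin libraries. Its footprints were 149.6, 156 and 186 CPM in cycling, 144 to 169 CPM in quiescent and senescent and 38.7 and 24.6 CPM in thapsigargin libraries. The thapsigargin libraries lay above all others for mRNA and below all others for footprints. The log2 differences were 1.14 ± 0.20 (SE, edgeR adjusted p = 0.0011) for mRNA, -2.37 ± 0.17 (SE, edgeR adjusted p = 4.2e-07) for footprints and -3.49 ± 0.29 (SE, edgeR adjusted p = 1.3e-08) for efficiency. All 3 calls held under every alternative, and RPL26 was the 1 member whose mRNA was called higher with thapsigargin. In cycling cells its log2 ratio of footprints to mRNA was 0.78, against a median of -1.93 over the members. The part of uncounted reads, such as those overlapping several genes, in its differences was not tested.

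Footprints of members spread widely with thapsigargin: 29 were lower and 12 higher, where 44.4% of all genes were called (20% higher and 24.4% lower), with a median of -0.35 against -0.11 over all genes and an interquartile range of 1.01 against 1.25. For the 23 members with at most 5 pseudogenes the median was -0.15, and without cycling Ribo-seq library 3 the median over all members was -0.22. RPL29 had 0 footprint counts in both thapsigargin libraries against 341 in the 3 cycling libraries, at least 13.0-fold lower with a floor of 3 counts over the group, while its mRNA was 319 and 375 CPM. RPS26 had 0 against 167 counts, at least 6.35-fold lower on the same floor. RPS28 had 13 against 9 counts, 12.7-fold higher as CPM with a counting interval (95%, exact) of 5.01 to 33.5. Without RPL29 and RPS26 the footprint differences ran from -2.37 (RPL26) to 3.57 (RPS28).

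Among better-counted members, RPS25 (-1.76), RPL14 (-1.77), RPL38 (-1.26), RPS3 (-1.09), RPS4X (-0.79) and RPL11 (-0.73) were lower and held throughout. RPL38 had 286 and 286 CPM, below all libraries of the other states. RPL7A (1.72), RPS18 (1.66), RPLP1 (1.14) and RPS20 (1.13) were higher and held throughout. RPS18 had 1691 and 1690.4 CPM against 471, 458 and 679 CPM in cycling cells, and RPLP1 279 and 261 against 110.5, 106 and 152 CPM. RPL10 stood at 2.24 ± 0.16 (SE, edgeR adjusted p = 3.3e-07) on the gene's strand (416 and 622 against 104, 101 and 125 CPM) but at -2.49 when both strands were counted, so its direction depends on the strand counted. The share of reads that map to several places differs between these libraries by the values given above, and its part in the footprint differences was not tested.

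Efficiency was called higher for 20 and lower for 9 members with thapsigargin, where 20.8% of all genes were called (9.21% higher and 11.6% lower), with a median of 0.30 against -0.10 over all genes. Here as in all comparisons counts were scaled within each library, so higher and lower are relative to the other genes. Total mRNA and total translation per cell cannot be read from these counts. The calls that held under every alternative numbered 13: RPL5 (0.97), RPS9 (1.25), RPL27A (1.37), RPS20 (1.62), RPL15 (1.90), RPS18 (2.21), RPL7A (2.55) and RPS28 were higher, and RPL14 (-1.21), RPS12 (-1.50), RPL26, RPL29 and RPS26 lower. Of 23 members called in both assays with thapsigargin, 16 moved in the same direction. The same overlap was not counted over all genes.

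**Figure D5:**
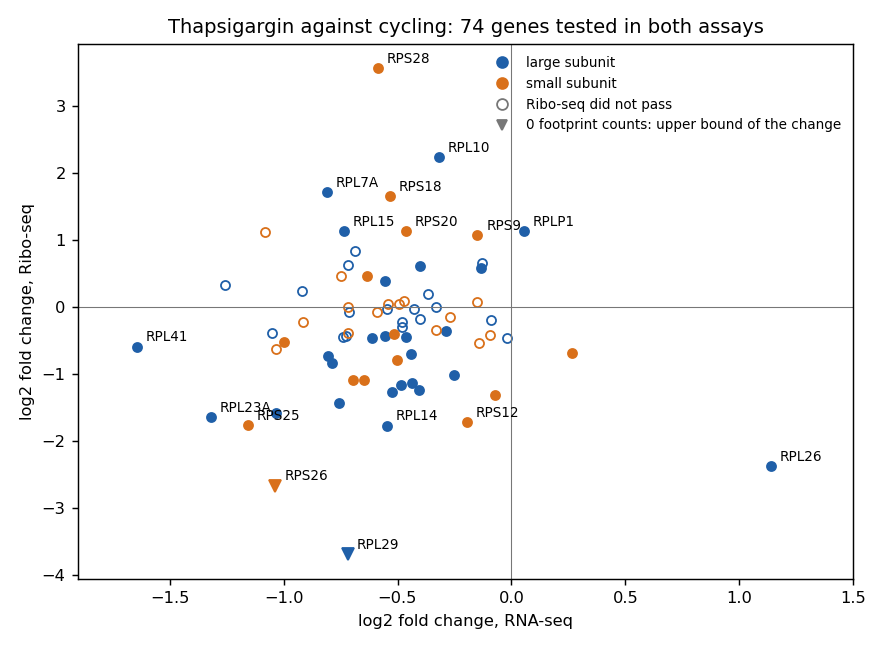
Log2 difference of thapsigargin from cycling cells in RNA-seq (x axis) and Ribo-seq (y axis) for 74 members, with RPL29 and RPS26, which had 0 footprint counts, drawn as triangles at the bound that 3 counts allow. RPL26 stands alone at the lower right, with 1.14 in RNA-seq and -2.37 in Ribo-seq.

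Large- and small-subunit genes had close medians in all comparisons. The difference between the 2 medians was at most 0.05 in size in the 6 RNA-seq comparisons and at most 0.09 in the 6 Ribo-seq comparisons, less than the spread between libraries of 1 state in the difference of the subunits' median levels (pooled SD 0.11 in RNA-seq and 0.13 in Ribo-seq). Without thapsigargin Ribo-seq library 2 the thapsigargin footprint value turned from -0.09 to 0.17. Summed counts gave 1.54 to 1.64 large-subunit counts per small-subunit count in the 13 RNA-seq libraries. In Ribo-seq the ratio was 1.35 to 1.37 in cycling libraries, 1.24 to 1.35 in quiescence, 1.41 to 1.45 after irradiation, 1.35 to 1.47 after etoposide and 1.18 to 1.22 with thapsigargin. The irradiated libraries lay above the cycling ones and the thapsigargin libraries below all others, and these sums follow the few most abundant genes.

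The 3 stalk proteins, which bring elongation factors to the ribosome, had no call outside thapsigargin in either assay, with mRNA differences from cycling cells of 0.02, 0.34 and 0.34 (RPLP0, RPLP1, RPLP2) after irradiation and -0.29, -0.04 and 0.13 after etoposide. RPLP1 varied widely within states, with 499 and 845 CPM in the 2 cycling RNA-seq libraries. RPL13A, known for its role outside the ribosome in silencing inflammatory mRNAs, and RPS27A, made as a fusion to ubiquitin, had no call outside thapsigargin. Of the 14 proteins of the 40S head, 2 were lower in mRNA after irradiation and 2 after etoposide, where 35% and 34.6% of all genes were called. Of the 13 tested in Ribo-seq 2 and 5 were lower, where 39.8% and 34.2% were called, and none of the head proteins was called higher in these comparisons. In all, 8 of 77 members were called in no RNA-seq or Ribo-seq comparison, and 29 were called in none outside thapsigargin. The same was not counted over all genes, so whether these numbers are high or low for the members is not known.

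Members with and without the TOP start are set side by side next. After etoposide the mRNA median was -0.20 for the 46 members with such a start and -0.21 for the 16 without, and in footprints it was -0.23 (43 tested) and -0.09. With thapsigargin it was -0.54 and -0.52 in mRNA and -0.35 and -0.42 in footprints. The efficiency median with thapsigargin was 0.35 for members with the start, of which 20 of 43 were called, and 0.09 for those without, of which 5 of 16 were called, where 20.8% of all genes were called. In quiescent cells the mRNA medians were 0.06 and 0.09 and the efficiency medians -0.12 and -0.14, and after irradiation 0.06 and 0.07 and -0.15 and -0.06. No difference between the classes was tested. Of 18 tested mRNAs known for a TOP tract that do not encode ribosomal proteins, such as elongation and initiation factors, 9 were lower after etoposide and none higher, where 17.8% and 16.8% of all genes were called, with a median of -0.36 and all 18 below 0. HNRNPA1, an RNA-binding protein, NPM1, a nucleolar chaperone, and EIF2S3, a subunit of the initiation factor eIF2, chosen here after their values were seen, stood at -1.53 ± 0.19 (SE), -0.64 ± 0.16 (SE) and -0.52 ± 0.12 (SE). In quiescent cells none of the 18 was called (median 0.12) and in irradiated cells 1 was lower, HNRNPA1 (median 0.04). In irradiated against etoposide-treated cells 8 were higher and none lower, where 9.69% and 12.9% of all genes were called, with all 18 above 0 and a median of 0.38. Their footprints after etoposide were lower for 5 and higher for 2 (median -0.13), where 17.6% and 16.5% of all genes were called. The 2 were EEF2, which moves the ribosome along the mRNA (0.36 ± 0.12 (SE)), and NAP1L1, a histone chaperone (0.43 ± 0.12 (SE)).

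Of 15 genes that control TOP mRNAs, all tested, EIF4EBP1 and EIF4EBP2, the 2 repressors of cap-dependent initiation that mTOR inactivates, moved in opposite directions in senescent cells. EIF4EBP1 mRNA changed by -0.42 ± 0.14 (SE) after irradiation and -1.29 ± 0.13 (SE) after etoposide, and EIF4EBP2 mRNA by 0.74 ± 0.13 (SE) and 0.65 ± 0.13 (SE). Both also passed the test in footprints, with -1.44 ± 0.18 (SE) and 0.77 ± 0.15 (SE) after etoposide. In RNA-seq 1 gene of the list was higher and 1 lower after irradiation, and 2 and 2 after etoposide, where 35% and 34.6% of all genes were called. In Ribo-seq 3 were higher and 3 lower in each, where 39.8% and 34.2% were called. Both genes were named after their values were seen.

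Of 77 tested genes that build ribosomes, 14 were lower and 3 higher in irradiated cells in RNA-seq (median -0.18), where 18.8% of all genes were called lower and 16.2% higher. In Ribo-seq 21 were lower and 7 higher (median -0.22), where the shares were 22.5% and 17.3%. After etoposide 15 were lower and 10 higher in RNA-seq (median -0.09, with 17.8% and 16.8% of all genes) and 15 and 9 in Ribo-seq (median -0.12, with 17.6% and 16.5%). With thapsigargin 10 were higher and 1 lower in RNA-seq (median 0.15, with 11.8% and 12.8% of all genes) and 37 and 13 in Ribo-seq (median 0.37, with 20% and 24.4%), beside members' medians of -0.55 and -0.35. Proteins of the mitochondrial ribosome had a median of -0.14 after etoposide in RNA-seq (13 lower and 5 higher of 76, with 17.8% and 16.8% of all genes) and of -0.20 in Ribo-seq (25 lower and 2 higher of 74, with 17.6% and 16.5%).

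The paralogs RPL22L1 and RPL39L, which the rule leaves out, fell in both kinds of senescent cells. RPL22L1, the paralog of RPL22, had 133 to 156 mRNA CPM in cycling, 82.3 to 124 CPM in the quiescent, 59.3 to 75.8 CPM in the irradiated and 55.3 to 59.2 CPM in etoposide libraries. The senescent libraries lay below all quiescent and cycling ones. Its mRNA changed by -1.06 ± 0.19 (SE, edgeR adjusted p = 0.00069) and -1.33 ± 0.19 (SE, edgeR adjusted p = 0.00011), and its footprints by -1.31 ± 0.15 (SE) and -1.46 ± 0.15 (SE). RPL22 itself rose in irradiated cells and stood at 0.07 after etoposide, as given above.

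RPL39L, a paralog of RPL39, had 19.5 to 28.8 mRNA CPM in cycling, 16.3 to 17.7 CPM in the quiescent, 8.13 to 8.63 CPM in the irradiated and 5.13 to 5.47 CPM in etoposide libraries, with no overlap between the 4 states. Its mRNA changed by -1.52 ± 0.16 (SE, edgeR adjusted p = 1.1e-05) and -2.19 ± 0.16 (SE, edgeR adjusted p = 3.1e-07), and its footprints by -1.78 ± 0.28 (SE) after etoposide. In irradiated cells the footprint difference of -0.70 ± 0.28 (SE, edgeR adjusted p = 0.058) missed the threshold. RPS27L, a paralog of RPS27 that p53 induces, rose among footprints in irradiated cells (0.70 ± 0.15 (SE)), and FAU, a ubiquitin-like fusion to a small-subunit protein, rose after etoposide (0.50 ± 0.17 (SE)). RACK1, a scaffold on the 40S head, had less mRNA after etoposide (-0.41 ± 0.12 (SE)).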

How the data were processed

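The files held, per library, the authors' deposited gene counts: whole reads per Ensembl gene identifier on both strands and on each. The submitters' processing notes name bcl2fastq, STAR 2.7.10b, hg38 and DESeq2 1.36.0; the annotation release and read trimming are not given in the sources used here. In STAR's gene counts, reads that map to several places or overlap several genes are left out. Per the labels' protocols, mRNA was prepared with Illumina's TruSeq kit that keeps strand, and footprints with an NEB kit for small RNA. For mRNA the counts on the reverse strand entered the analysis, and for footprints those on the forward strand. STAR's summary lines of unassigned reads name no gene and entered neither library sizes nor tests; reads overlapping several genes were 5.79% to 12.8% of uniquely mapped reads in RNA-seq and 4.86% to 7.33% in Ribo-seq.

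Symbols and biotypes came from a RefSeq-based gene table, matched by Ensembl identifier (60461 of 60534 had a symbol). The members and gene lists were chosen with earlier results of these data known, and no set test was run. Groups came from sample titles. Protein-coding genes that passed edgeR's filter on low counts (13201 in RNA-seq, 11689 in Ribo-seq, 11639 in both) were tested with edgeR 4.0.16 (R 4.3.3, limma 3.58.1): TMM scaling, 1 quasi-likelihood fit over all 5 states, Benjamini-Hochberg adjustment over all genes tested, threshold 0.05. Translational efficiency was the interaction of assay and state over 27 libraries. CPM values are TMM-scaled counts-per-million; standard errors come from the fold change and its F value. Counting intervals and floors cover counting error only.

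Named members were the 3 highest and 3 lowest called in each comparison, the most often called, and 16 fixed members; others are named where a call held under every alternative. A few genes that the rule or lists would name are not reported here by name, though the counts over members include them. Alternatives were DESeq2 1.42.0, other scalings, no filter, both strands, only the groups compared, a replicate block, pseudogene counts added to their parents, each library left out and, chosen after seeing the data, all states but thapsigargin and only members with at most 5 pseudogenes. On simulated counts of irradiated against cycling cells (11639 genes) the tests found 86% (RNA-seq), 79% (Ribo-seq) and 41% (efficiency) of genes with a log2 change of 1, and 99%, 96% and 95% of those with a change of 2. Replicate libraries differed by more than sampling noise (chi-square per degree of freedom at least 1.82), so none was counted as a repeat.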

Additional observations from a re-analysis of the deposited data

Results flagged for a closer look

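The counts assigned to pseudogenes named after a member were set against the counts of the members themselves, since no comparison of the report uses pseudogene counts as its measure. In the 2 thapsigargin RNA-seq libraries there were 2.72 and 2.78 pseudogene counts per 100 member counts, above the 2 cycling RNA-seq libraries at 0.772 and 0.752 and above every other RNA-seq library (0.654 to 0.901). In Ribo-seq the thapsigargin libraries were lowest instead, with 1.19 and 1.03 against 1.46 to 2.67 elsewhere. Which reads these are was not tested.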

How the results depend on the processing

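Most medians moved by less than the spread between libraries of a state (RNA-seq 65 of 65 values under the alternatives other than leaving out a library, efficiency 65 of 65, Ribo-seq 62 of 65), and so did every difference between large- and small-subunit medians (59 of 59 in each assay). The counts of called members moved more, and the cause was not tested except where noted. A fit on only the groups compared, which has fewer libraries to estimate the spread, called 15 (irradiated), 35 (etoposide), 26 (thapsigargin), 0 (quiescent) and 32 (irradiated against etoposide) in RNA-seq, 3 (quiescent), 13 (senescent against quiescent) and 11 (irradiated against etoposide) in Ribo-seq, and 12 (irradiated), 2 (etoposide) and 4 (irradiated against etoposide) in efficiency. The RNA-seq call of quiescent cells was also lost (0) with both strands, no filter or pseudogene counts added. In irradiated against etoposide-treated cells RNA-seq gave 3 calls with DESeq2's size factors, library size alone or no filter, and Ribo-seq gave 8 with DESeq2, 5 with its size factors, 5 without the thapsigargin libraries, 1 with both strands and 12 with library size alone, where the median was 0.19. Library size alone gave 17 after etoposide in RNA-seq and 6 for quiescent cells in Ribo-seq, and no filter gave 13 for senescent against quiescent cells in Ribo-seq. The thapsigargin footprint median was -0.46 with no filter and -0.15 over members with at most 5 pseudogenes. Efficiency calls numbered 2 in irradiated cells with DESeq2, both strands, library size alone or no filter and 0 with pseudogene counts added; after etoposide 3 with DESeq2, 2 with library size alone and 0 with pseudogene counts; and in senescent against quiescent cells 3 with DESeq2 and 2 without thapsigargin.

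With both strands counted, thapsigargin differences turned for RPL10 (-2.49 in Ribo-seq, -2.35 in efficiency) and RPS23 (-0.045 in efficiency). With pseudogene counts added they turned for RPL36A in RNA-seq (0.16 in quiescent and 2.96 in thapsigargin cells) and RPL17 (-0.14 in senescent against quiescent cells).

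Leaving out each library gave these ranges of calls. In RNA-seq they were 0 to 6 (quiescent), 2 to 5 (irradiated), 3 to 8 (etoposide), 28 to 45 (thapsigargin), 8 to 26 (senescent against quiescent) and 0 to 2 (irradiated against etoposide). In Ribo-seq they were 4 to 14, 10 to 13, 12 to 19, 35 to 39, 6 to 13 and 0 to 4 in the same order. In efficiency they were 0 to 2 (irradiated), 1 to 2 (etoposide), 22 to 28 (thapsigargin) and 1 to 2 (senescent against quiescent). Medians ranged from -0.27 to -0.040 for senescent against quiescent cells in RNA-seq, and in Ribo-seq from -0.20 to -0.040 (quiescent), -0.15 to 0.063 (irradiated), -0.22 to -0.058 (etoposide) and -0.34 to -0.22 (thapsigargin). The efficiency median of irradiated against etoposide-treated cells ranged from -0.20 to 0.10, the high value without irradiated RNA-seq library 2. The large-minus-small value with thapsigargin ranged from -0.13 to 0.17 in Ribo-seq and from -0.23 to 0.088 in efficiency, both high values without thapsigargin Ribo-seq library 2. Arms left with 1 library were assumed to vary like the other groups.

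Libraries that share a replicate number did not deviate together in all cases: the correlation was over 0.1 in 10 of 23 pairs across states in RNA-seq and 7 of 26 in Ribo-seq, and 6 of 13 and 10 of 14 libraries correlated best with their own number. Between RNA-seq and Ribo-seq libraries of a state it was over 0.1 in 7 of 13 pairs with the same number (up to 0.61) and in 2 of 24 with different numbers. Deviations within a state offset each other, and in a group of 2 libraries the correlations of the 2 are exact opposites. Counts for same and different numbers are therefore not independent, and part of the contrast is built in. With the replicate number as a block, calls numbered 0 for quiescent cells in RNA-seq, 5 for irradiated against etoposide-treated cells in Ribo-seq and 2 for etoposide in efficiency, and 9 of 217 calls of single members were lost: RPL36A in quiescent (adjusted p = 0.076), RPL39 in irradiated (0.073), RPL4 in etoposide-treated (0.053) and RPS3 in thapsigargin-treated cells (0.052) in RNA-seq, RPL32 in senescent against quiescent (0.059) and RPL23A in irradiated against etoposide-treated cells (0.055) in RNA-seq, and in efficiency RPL7 in irradiated (0.077) and RPL36 and RPS14 in thapsigargin-treated cells (0.056 each). Footprint depth (1936976 to 19996104 gene counts) limits the footprint values, and 5 members had under 100 footprint counts over the cycling libraries.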

Other observations

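A few pseudogenes named after members held counts that set some libraries apart. In RNA-seq RPLP0P6 had 240 and 159 counts in the cycling libraries and 4573 and 5140 in the thapsigargin libraries. RPS28P7 had 48 and 28 counts in cycling and 2484 and 4375 in thapsigargin libraries, and RPS18P5 had 13 and 17 against 2728 and 3581. Each stayed at or below 261 counts in the other 9 RNA-seq libraries, and none had more than 1 footprint count in the thapsigargin Ribo-seq libraries. RPS4XP22 showed the reverse, with 0 counts in both cycling RNA-seq libraries but 619, 929 and 480 footprint counts in the cycling Ribo-seq libraries, and 92 and 154 with thapsigargin. These 4 were chosen after their values were seen.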
